A study of Mus musculus with 15 samples.

Results

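The genes described here are 10 genes of heart muscle that were measured in mouse aorta: Myh6, Myl4, Myl7, Mybpc3, Actc1, Tnnt2, Tnni3, Ryr2, Sln and Nppa. They were taken by name, and every probe set annotated to exactly 1 gene that is among them was used, which gave 16 of the 45037 probe sets tested and 10 of the 18193 genes they name. RNA came from the whole aorta, from its root at the heart to its lower bifurcation, of male C57BL/6 mice aged 9 weeks, 1 mouse per Affymetrix array. Every mouse was ApoE-/-, a deletion that predisposes to atherosclerosis, and mice of 2 groups were also RAGE-/-, without the receptor, encoded by Ager, that binds glycated proteins. The comparisons ask what diabetes did to the aortic transcriptome and whether RAGE altered it.

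The 4 groups were diabetic ApoE null mice (replicates 1 to 4), non-diabetic ApoE null mice (replicates 5 to 8), diabetic ApoE/RAGE null mice (replicates 9 to 12) and non-diabetic ApoE/RAGE null mice (replicates 13 to 15). Diabetes had been induced at 6 weeks of age with 5 daily intraperitoneal injections of 65 mg/kg streptozotocin, a toxin of the insulin-producing cells, and non-diabetic mice received the citrate buffer. The ApoE null mice came from Jackson labs whereas the double null animals had been bred in the colony of a different laboratory, so genotype and colony cannot be told apart.

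Heart muscle cells contract when myosin heads on the thick filament pull on actin in the thin filament, a step that troponin on the thin filament permits when calcium is released from the sarcoplasmic reticulum. Atrial and ventricular cells of the adult mouse share most of these parts, Myh6, Mybpc3, Actc1, Tnnt2, Tnni3 and Ryr2 among them, but use different myosin light chains: Myl4 and Myl7 in atria, Myl3 and Myl2 in ventricles. Sln and Nppa are also mainly atrial in the adult mouse heart, although Sln is made in some skeletal muscles too. The smooth muscle of the aortic wall has its own actin and myosin, encoded by Acta2 and Myh11.

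The bases just upstream of the transcription start of these genes are shown for 4 of them. Most of the atrial genes and most of the genes of both chambers varied between arrays as separate sets, described below. Myl7 and Nppa stand for the atrial genes, Actc1 and Mybpc3 for the genes of both chambers, and these 4 promoters held most of the matches found. Nppa, though mainly atrial, varied with genes of both sets. The sequences are from RefSeq, build GRCm38.p6, read 5′ to 3′ on the gene's strand and ending at the base before the start. Capitals mark matches, on either strand, to 5 motifs of heart muscle transcription factors: GATAA for the factor family of that name, AAGTG for the homeobox factor NKX2-5, GGTGTNA for the T-box factor TBX5, the MEF2 motif and the SRF CArG box.
Myl7 promoter, chr11:5898783-5899032, minus strand: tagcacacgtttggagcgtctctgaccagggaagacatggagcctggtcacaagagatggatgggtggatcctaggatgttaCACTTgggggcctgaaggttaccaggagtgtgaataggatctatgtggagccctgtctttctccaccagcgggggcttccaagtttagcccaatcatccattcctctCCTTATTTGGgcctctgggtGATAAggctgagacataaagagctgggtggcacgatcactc
Nppa promoter, chr4:148000472-148000721, plus strand: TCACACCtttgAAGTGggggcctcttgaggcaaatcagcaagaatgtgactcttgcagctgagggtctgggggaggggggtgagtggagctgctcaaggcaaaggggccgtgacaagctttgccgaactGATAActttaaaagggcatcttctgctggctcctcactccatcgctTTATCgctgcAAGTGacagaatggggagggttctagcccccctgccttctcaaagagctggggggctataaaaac
Actc1 promoter, chr2:114052876-114053125, minus strand: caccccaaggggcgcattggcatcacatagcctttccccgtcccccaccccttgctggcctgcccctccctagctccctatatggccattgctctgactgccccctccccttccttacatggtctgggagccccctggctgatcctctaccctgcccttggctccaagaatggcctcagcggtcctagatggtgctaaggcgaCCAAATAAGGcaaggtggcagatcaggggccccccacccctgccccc
Mybpc3 promoter, chr2:91117894-91118143, plus strand: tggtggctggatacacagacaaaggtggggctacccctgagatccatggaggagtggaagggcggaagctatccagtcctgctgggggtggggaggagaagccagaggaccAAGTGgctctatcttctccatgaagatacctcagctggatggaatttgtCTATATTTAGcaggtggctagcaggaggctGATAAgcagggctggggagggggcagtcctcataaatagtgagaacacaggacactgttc

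The promoter table held 10 promoters of 9 of the 10 genes, and Sln had none in it. The CArG box lay at bases -61 to -52 of Myl7 and -47 to -38 of Actc1, so 2 of 9 genes held it, against 1.47% of all 32851 promoters over the same 250 upstream bases. The MEF2 motif was in 1 of 9 genes, Mybpc3, at -90 to -81, and in 2.92% of all promoters. GATAA was found in 4 of 9 genes (Mybpc3, Myl7, Nppa and Tnnt2) and in 22.6% of all promoters, and AAGTG in 5 of 9 genes (Mybpc3, Myh6, Myl4, Myl7 and Nppa) and in 40.7%. GGTGTNA was in 2 of 9 genes, Nppa and Tnni3, and in 8.61% of all promoters. AAGGTCA, letters bound by estrogen-related receptors, was in 0 of 9 genes and in 4.08% of promoters. Matches to different motifs overlapped 0 times, and each motif that was found in more than 1 gene, other than GGTGTNA in Nppa and Tnni3, occurred in Myl7.

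Levels are the deposited log2 values of robust multi-array average (RMA) normalization, so a difference of 1 is a 2-fold difference, and the level of 1 probe set is not set against that of another. The median probe set read 4.35 to 4.42 on each array. Before the results, 3 features of the arrays bear on what follows. The array of replicate 8, a non-diabetic ApoE null mouse, stood apart for these genes and each comparison is given with and without it. Replicates 9 and 10 are labelled diabetic ApoE/RAGE null, but at Decr2 they read 5.10 to 5.19, with the ApoE null arrays (5.32 to 6.01) rather than with replicates 11 and 12 (7.40 to 7.56) or 13 to 15 (6.84 to 6.98), and they are called by their labels here. At Ager itself, probe set 1420428_at read 3.08 to 3.66, below the median probe set, on all 15 arrays and so did not check the deletion. Probe set 1441958_s_at was not lower in mice labelled RAGE-/-: it read 4.89 to 5.36 on replicates 11 to 15 and 4.17 to 4.69 on replicates 1 to 8, and replicates 9 and 10, at 4.63 and 4.48, again lay with the ApoE null arrays.

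The labelled tissue was checked with smooth muscle genes, which were high and steady: Acta2 read 13.19 to 13.45 and Myh11 11.75 to 12.48 at their brightest probe sets, and over 7 smooth muscle genes the mean deviation of an array from the 15-array mean was -0.36 to 0.29. The heart muscle genes were far less steady. The SD between arrays of 1 group was 0.164 for the median probe set and 0.769 at the 99th percentile, and it was 1.67 for Myh6. The share of all probe sets with an SD at least as large was 0.0244% for Sln, 0.0311% for Nppa, 0.0333% for Tnni3, 0.0488% for Myl7 and 0.0533% for Myh6. It was 0.0977% for Actc1, 0.16% for Myl4, 0.178% for Tnnt2, 0.238% for Mybpc3 and 1.23% for Ryr2. In bulk RNA, more cells of a kind and more RNA per cell cannot be told apart, and since the whole aorta was one extract, no value here places the signal at the aortic root.

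**Figure D1:**
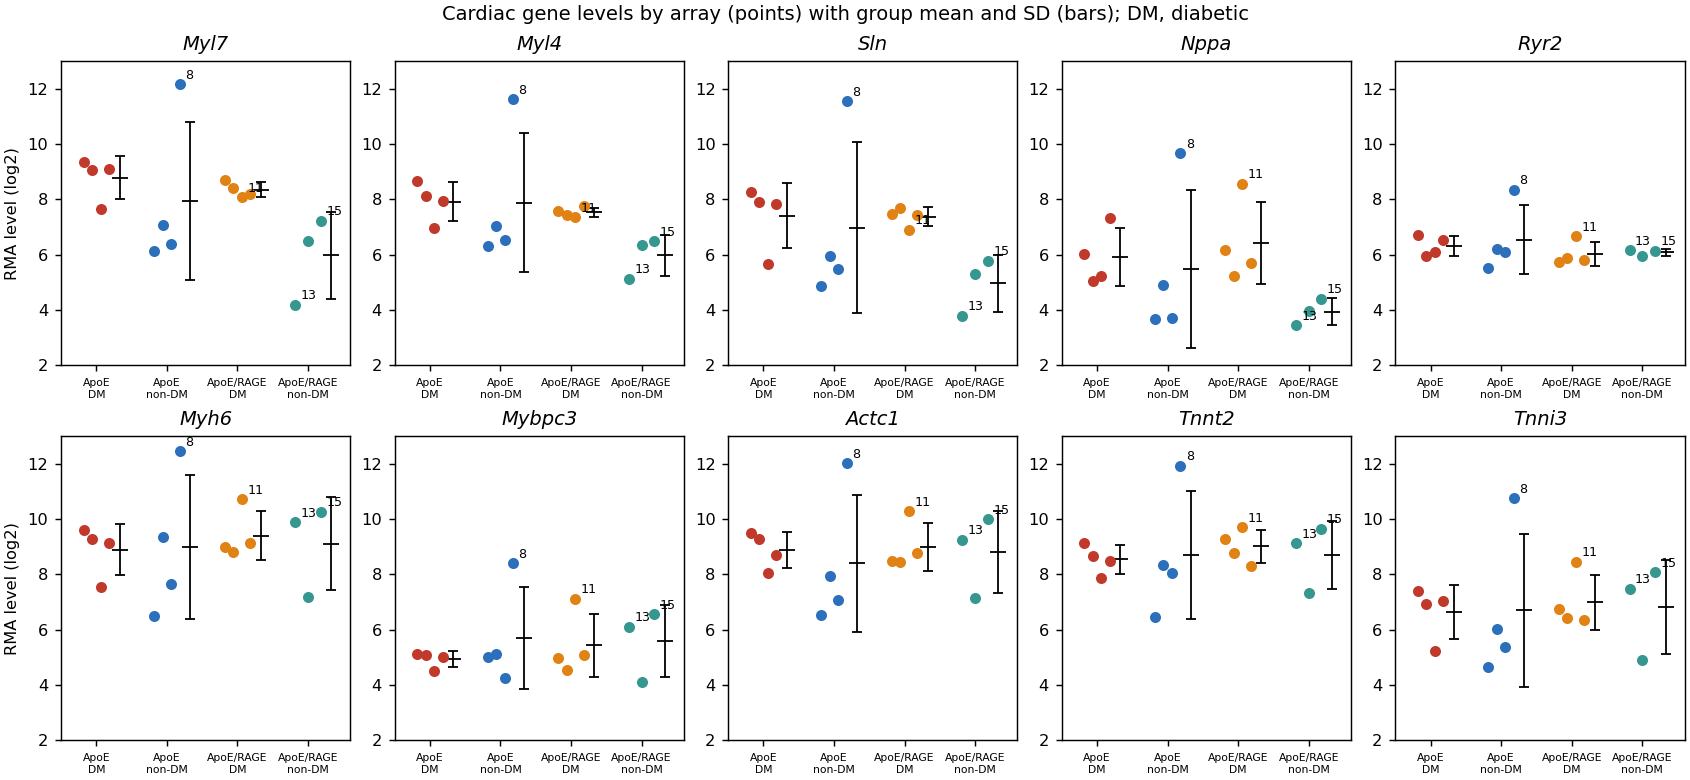
Level of each of the 10 genes (log2 RMA value, 1 panel per gene) on each array, by group, with the group mean and SD as bars and replicates 8, 11, 13 and 15 numbered (DM, diabetic). Replicate 8 is the highest array in all 10 panels. Replicates 11 and 15 come next for Myh6, Mybpc3, Actc1, Tnnt2 and Tnni3, followed by replicate 13 for Myh6, Mybpc3 and Tnni3 only. Replicates 11, 13 and 15 are not high for Myl7, Myl4 and Sln.

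Among thick filament genes, Myl7, the atrial regulatory light chain, read 9.37, 9.05, 7.65 and 9.08 in diabetic ApoE null mice and 6.14, 7.06, 6.40 and 12.17 in non-diabetic ones. In ApoE/RAGE null mice it read 8.70, 8.43, 8.08 and 8.19 with diabetes and 4.19, 6.50 and 7.22 without. Replicate 8 was thus the highest of all arrays, replicate 13 the lowest, and the other 6 non-diabetic arrays lay below all 8 diabetic ones.

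Myl4, the atrial essential light chain, gave the same order of extremes. It read 8.65, 8.13, 6.95 and 7.93 in diabetic and 6.33, 7.03, 6.53 and 11.63 in non-diabetic ApoE null mice, and 7.57, 7.44, 7.35 and 7.74 in diabetic and 5.13, 6.34 and 6.48 in non-diabetic ApoE/RAGE null mice. Of the 8 diabetic arrays, 7 lay above the 6 non-diabetic arrays other than replicate 8. Its other probe set, 1457126_at, read 3.76 to 4.22, below the median probe set on each array.

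Myh6, the fast myosin heavy chain of both chambers, followed another order. It read 9.61, 9.28, 7.53 and 9.14 in diabetic and 6.48, 9.36, 7.66 and 12.45 in non-diabetic ApoE null mice, and 8.99, 8.80, 10.71 and 9.12 in diabetic and 9.89, 7.18 and 10.27 in non-diabetic ApoE/RAGE null mice. After replicate 8, the highest arrays were replicates 11, 15 and 13, and the range over 15 arrays, 5.96, was 62.3-fold. Another Myh6 probe set, 1417729_at, read 3.91 on the array of replicate 8 and 1.83 to 2.16 on the other 14. Mybpc3, the myosin binding protein of heart muscle, also had its highest values at replicates 8 (8.40), 11 (7.12), 15 (6.56) and 13 (6.10), against 4.12 to 5.14 on the other 11 arrays.

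The thin filament genes resembled Myh6. Tnni3, cardiac troponin I, which holds contraction off until calcium arrives, read 7.40, 6.93, 5.21 and 7.04 in diabetic and 4.67, 6.02, 5.36 and 10.76 in non-diabetic ApoE null mice, and 6.73, 6.43, 8.47 and 6.33 in diabetic and 7.49, 4.90 and 8.07 in non-diabetic ApoE/RAGE null mice. Actc1, cardiac actin, spanned 6.53 (replicate 5) to 12.02 (replicate 8), with 10.28 at replicate 11 and 10.00 at replicate 15. Tnnt2, cardiac troponin T, which anchors troponin to the filament, spanned 6.45 to 11.94 at the same 2 replicates. Its other probe sets also peaked at replicate 8, 1418726_a_at at 11.30 and 1440424_at at 7.37.

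Of the calcium handling genes, Sln, whose product sarcolipin restrains the calcium pump, behaved like Myl7. It read 8.26, 7.89, 5.65 and 7.83 in diabetic and 4.88, 5.94, 5.49 and 11.56 in non-diabetic ApoE null mice, and 7.46, 7.70, 6.90 and 7.44 in diabetic and 3.79, 5.31 and 5.79 in non-diabetic ApoE/RAGE null mice. Replicate 3 was the 1 diabetic array within the range of the 6 non-diabetic arrays other than replicate 8. Ryr2, the calcium release channel, varied least of the 10 genes, from 5.51 to 6.70 on 14 arrays and 8.35 at replicate 8. Second probe sets for Sln (3.07 to 3.82) and Ryr2 (2.51 to 3.30) lay below the median probe set throughout.

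Nppa encodes atrial natriuretic peptide, the hormone that the atrium releases when stretched. It read 6.02, 5.06, 5.24 and 7.33 in diabetic and 3.68, 4.89, 3.71 and 9.67 in non-diabetic ApoE null mice, and 6.16, 5.24, 8.56 and 5.71 in diabetic and 3.45, 3.98 and 4.41 in non-diabetic ApoE/RAGE null mice. All 8 diabetic arrays lay above the 6 non-diabetic arrays other than replicate 8. Replicates 8 and 11 were the highest, so Nppa shared its extremes with both sets of genes.

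The array of replicate 8 was the highest of 15 for 10 of 10 genes, as it was for 3.62% of all probe sets. Over the median of the other 14 arrays it was 35.1-fold higher for Sln, 23.0-fold for Nppa, 21.8-fold for Myl4, 19.8-fold for Myl7 and 18.1-fold for Tnni3. The corresponding folds were 10.8 for Actc1, 10.3 for Tnnt2 and Mybpc3, 9.95 for Myh6 and 4.78 for Ryr2. Of 6 other atrial genes measured, 5 were highest there at their brightest probe set, by different amounts. Mybphl, a myosin binding protein of atrial muscle, read 8.36 against 3.18 to 4.57 elsewhere, and the potassium channel gene Kcnj5 5.30 against at most 2.94, though 2.71, not the highest, at its other probe set. Its partner Kcnj3 read 4.69 against at most 4.27 at its brightest probe set, 8.14 against at most 4.30 at 1455374_at, and 2.15, not the highest, at 1444336_at. Tbx5 read 5.10 against at most 4.53, and the growth factor gene Bmp10 4.05 against at most 3.90, below the median probe set. The sixth, the potassium channel gene Kcna5, read 7.18 there and was highest, at 7.29, on replicate 10. Corin, the protease that processes the Nppa product, read 7.90 there against at most 5.14 elsewhere. The ventricular light chain gene Myl2 read 5.89 there, below the 7.04 median of the other arrays. Myl3 read 6.00, 1.48-fold above the median of the others and below replicates 11, 15 and 13 (8.17, 8.12 and 7.29). Thus on this array the atrial and shared genes were high together while Myl2 was not. Skeletal muscle genes were raised there too: over 18 of them this array lay 1.06 above the 15-array mean. The other 6 non-diabetic arrays lay at -1.68 to -0.80, and the diabetic replicates 4, 9, 11 and 12 lay higher than replicate 8.

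Replicates 11, 13 and 15 showed the other pattern. There Myl2 read 10.42, 9.72 and 10.07, against at most 8.22 on the other 12 arrays. Averaged over Myh6, Mybpc3, Actc1, Tnnt2, Tnni3 and Ryr2, these 3 arrays lay 1.32, 0.50 and 0.94 above the 15-array mean, while averaged over Myl4, Myl7, Sln and Nppa they lay at 0.81, -2.77 and -0.93. Replicate 13, a non-diabetic ApoE/RAGE null mouse, had the lowest Myl7, Myl4, Sln and Nppa of all 15 arrays. Myh7, the slow myosin heavy chain of ventricle and slow skeletal fibres, did not share this order, reading 5.64 at replicate 11 but 3.88 and 4.00 at replicates 13 and 15, and its highest value, 6.65, at replicate 4.

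**Figure D2:**
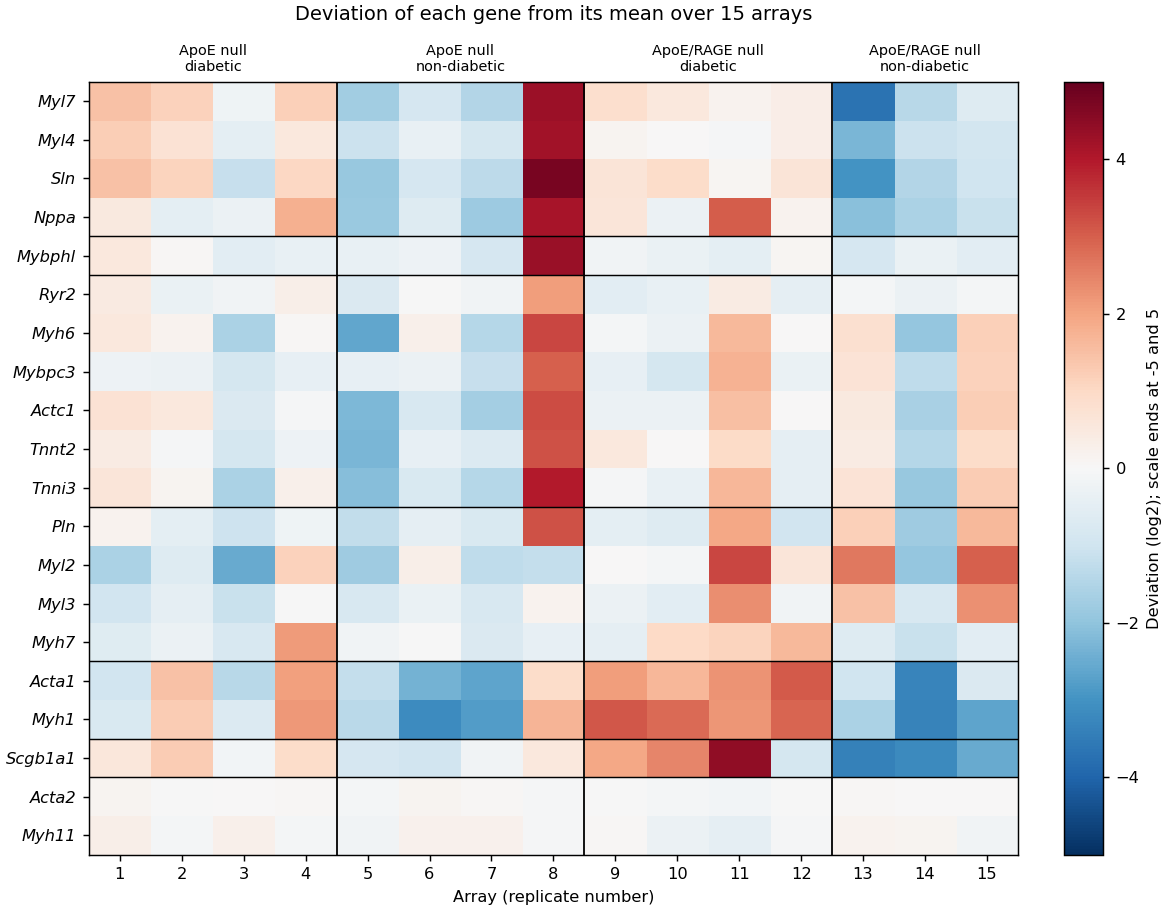
Deviation of each gene (rows) from its own mean over 15 arrays (columns, replicate number, grouped by genotype and diabetes), in log2 units by colour. Rows run from the atrial genes and Mybphl, through the genes of both chambers, to Pln and the ventricular and slow fibre genes Myl2, Myl3 and Myh7, skeletal muscle (Acta1, Myh1), airway (Scgb1a1) and smooth muscle (Acta2, Myh11). Replicate 8 is high in the atrial and shared rows and is the highest array for Pln, but it is not high for Myl2. Replicates 11, 13 and 15 are high for Myl2, Myl3 and Pln.

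Across arrays most of the 10 genes therefore fell into sets that moved together. Myl7 and Sln had Pearson's r 0.979 and Spearman's rho 0.975 over 15 arrays (permutation p 1e-05 for both, the smallest that 100000 permutations can give, adjusted p 3.71e-05 and 5.2e-05 over the 26 pairs computed), and r stayed at 0.963 without the farthest arrays, 8 and 13. Their r within groups, after group means were removed, was 0.978. Myh6 and Tnni3 had r 0.971 and rho 0.932 (permutation p 1e-05 for both, the smallest possible, adjusted p 3.71e-05 and 5.2e-05), 0.954 without the farthest arrays, 5 and 8, and 0.972 within groups. Between the sets, Myh6 and Myl7 had r 0.557 and rho 0.375 (permutation p 0.0318 and 0.167, adjusted p 0.0636 and 0.218), with r 0.695 within groups and 0.121 without arrays 5 and 8. Tnni3 and Myl7 had r 0.606 and rho 0.496 (permutation p 0.0204 and 0.0625, adjusted p 0.0482 and 0.0956), with r 0.752 within groups and 0.173 without arrays 5 and 8. Both relations rested on those arrays.

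Without replicate 8, r among Myl4, Myl7 and Sln was 0.96 to 0.97 and among Myh6, Actc1, Tnnt2 and Tnni3 0.90 to 0.96. Between those sets it was 0.24 to 0.40 over 14 arrays, as a description. Mybpc3 joined the latter set (0.66 to 0.83) and lay at -0.13 to -0.07 against Myl4, Myl7 and Sln, while Nppa correlated with Myl7 at 0.71 and with Myh6 at 0.52. The arrays share their RNA between genes, so these correlations describe which arrays were high and not a relation inside cells.

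**Figure D3:**
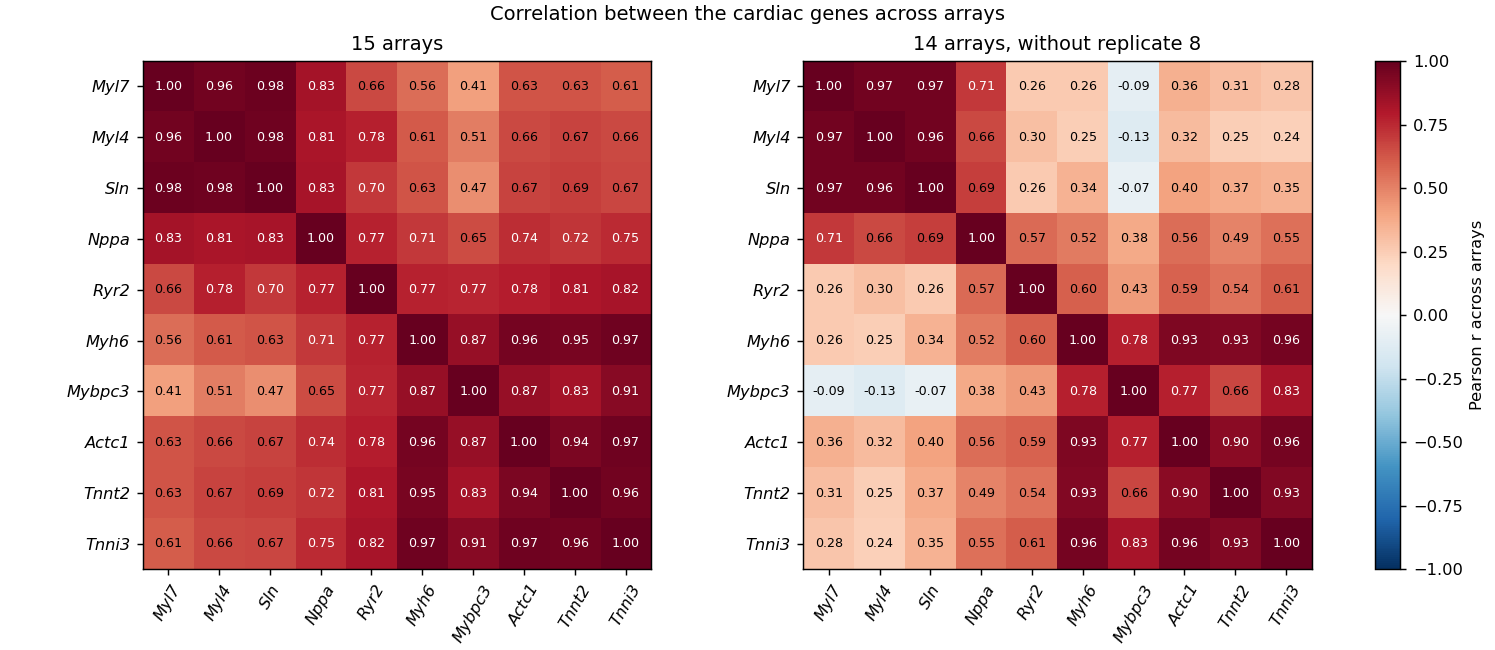
Pearson's r between the 10 genes across all 15 arrays (left) and across the 14 arrays without replicate 8 (right), with r printed and coloured from -1 to 1. On the right, Myl7, Myl4 and Sln form a block at 0.96 to 0.97 and Myh6, Actc1, Tnnt2 and Tnni3 another at 0.90 to 0.96.

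Set beside their ventricular counterparts, the atrial light chain genes showed the same split. Myl7 and Myl2 had r -0.207 and rho 0.025 over 15 arrays (permutation p 0.459 and 0.933, adjusted p 0.519 and 0.933), with r 0.209 without arrays 8 and 13 and -0.033 within groups. Myl4 and Myl3 had r -0.149 and rho 0.046 (permutation p 0.566 and 0.871, adjusted p 0.589 and 0.911), with r -0.106 without arrays 8 and 13 and 0.170 within groups. Myh6 and Myl2 had r 0.525 and rho 0.65 (permutation p 0.0437 and 0.0103, adjusted p 0.071 and 0.0223), and r was 0.834 without the farthest arrays, 5 and 8, and 0.566 within groups. Pln, the calcium pump inhibitor phospholamban, varied with Tnni3 (r 0.943, rho 0.954, permutation p 1e-05 for both, the smallest possible, adjusted p 3.71e-05 and 5.2e-05, r 0.908 without arrays 5 and 8, 0.963 within groups). The other pump inhibitor, Sln, had r 0.441 and rho 0.436 with Pln (permutation p 0.103 and 0.106, adjusted p 0.128 and 0.153), r 0.234 without arrays 8 and 13 and 0.621 within groups. Nppa and Nppb had r 0.532 and rho 0.354 (permutation p 0.0466 and 0.192, adjusted p 0.0713 and 0.238). Their r was 0.103 without arrays 8 and 11 and 0.478 within groups. Myh6 and Myh7 had r 0.179 and rho 0.229 (permutation p 0.522 and 0.411, adjusted p 0.566 and 0.486). Their r was 0.355 without arrays 5 and 8 and 0.163 within groups.

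**Figure D4:**
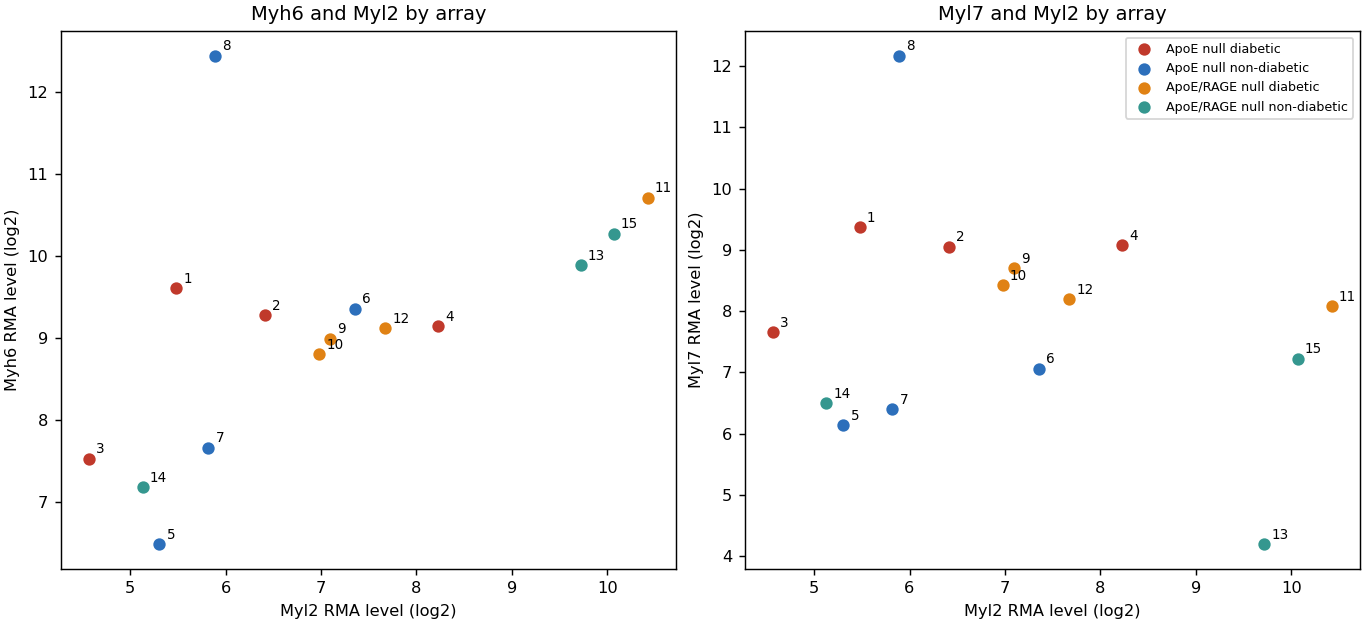
Level of Myh6 (left) and Myl7 (right) against the ventricular light chain gene Myl2 on each array (log2 RMA values, numbered by replicate, coloured by group). Myh6 climbs with Myl2 except on array 8, while Myl7 is highest on array 8 and lowest on array 13, which has a Myl2 level of 9.72.

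The non-member genes with the highest correlation with the mean of the 10 genes over 15 arrays were Smpx (0.958), Casq2 (0.945), Itgb1bp2 (0.940), Csrp3 (0.933), Lmod2 (0.923), Pgam2 (0.920), Ankrd1 (0.917), Myoz2 (0.916), Cox6a2 (0.916) and Hhatl (0.914). Casq2 encodes the calcium store protein of the heart's sarcoplasmic reticulum, and Csrp3 and Myoz2 proteins of the Z disc, where thin filaments are anchored. Smpx, Csrp3, Myoz2 and Cox6a2 were on a list of genes of both heart and skeletal muscle. Without replicate 8, r was lower for all 10, from 0.934 for Smpx to 0.758 for Hhatl.

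Diabetes in ApoE null mice gave no member a difference beyond the spread between arrays. By limma with Benjamini-Hochberg adjustment, 0 of 10 genes and 0 of 16 probe sets had an adjusted p under 0.05 (0% of all probe sets), 0 an unadjusted p under 0.05 (10.6% of all) and 0 a B statistic, limma's log odds of a difference, above 0 (0.169%). Diabetic minus non-diabetic, 5 of 10 genes were positive with a median of -0.012 against -0.0059 for all probe sets, and adjusted p ran from 0.778 to 0.993. The groups overlapped for all 10 genes, whereas they did not for 6.07% of all probe sets. Replicate 8 set these values: without it, as chosen after the data were seen, all 10 differences were positive with a median of 1.29. It was non-diabetic and the highest array for all 10 genes. Leaving it out therefore had to raise every difference, and the signs and counts without it add no support.

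In that 14-array fit 5 genes had an unadjusted p under 0.05, all higher in diabetes, as 4.14% of all probe sets were (7.97% in either direction), and 0 an adjusted p under 0.05, as 0% of all. Myl7 was 2.26 ± 0.57 higher (SE, 4 against 3 arrays), Sln 1.97 ± 0.56, Nppa 1.82 ± 0.70, Actc1 1.70 ± 0.62 and Myl4 1.29 ± 0.36, each with a limma adjusted p of 0.594. With all 15 arrays the corresponding differences were 0.85 ± 1.04, 0.44 ± 1.10, 0.42 ± 1.09, 0.49 ± 0.95 and 0.04 ± 0.87.

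For diabetes in ApoE/RAGE null mice no gene passed the test, and the atrial genes had the largest differences of the 10. Nppa was 2.47 ± 1.18 higher in diabetic mice (SE, 4 against 3 arrays), Sln 2.41 ± 1.19, Myl7 2.38 ± 1.12 and Myl4 1.54 ± 0.93, with limma adjusted p of 0.692, 0.694, 0.689 and 0.727. For these 4 of 10 genes the groups did not overlap, as for 6.49% of all probe sets. The 6 genes of both chambers lay between -0.16 (Mybpc3) and 0.31 (Tnnt2). By limma, 0 of 10 genes had an adjusted p under 0.05 (0% of all probe sets), 0 an unadjusted p under 0.05 (7.26%) and 0 a B above 0 (0.00888%), and the median was 0.30 against -0.02 for all probe sets.

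Leaving out replicate 8, which is in neither of these groups but in the shared estimate of the spread, kept the differences and narrowed their errors. Then 4 genes, Sln, Myl4, Myl7 and Nppa, had an unadjusted limma p of 0.000802, 0.000851, 0.000987 and 0.0033 (6.88% of all probe sets were under 0.05, 3.42% higher in diabetes), with adjusted p from 0.618 to 0.725. Replicate 8 was left out because it was extreme for these same genes, so narrower errors had to follow in each fit without it. The smaller p values here therefore add no support. Without replicates 9 and 10 the differences were 2.16 for Myl7, 2.21 for Sln, 3.19 for Nppa and 1.56 for Myl4. The 6 genes of both chambers then lay between 0.15 (Ryr2) and 0.80 (Myh6), Mybpc3 and Ryr2 with the sign turned, and the median over the 10 genes was 0.76.

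**Figure D5:**
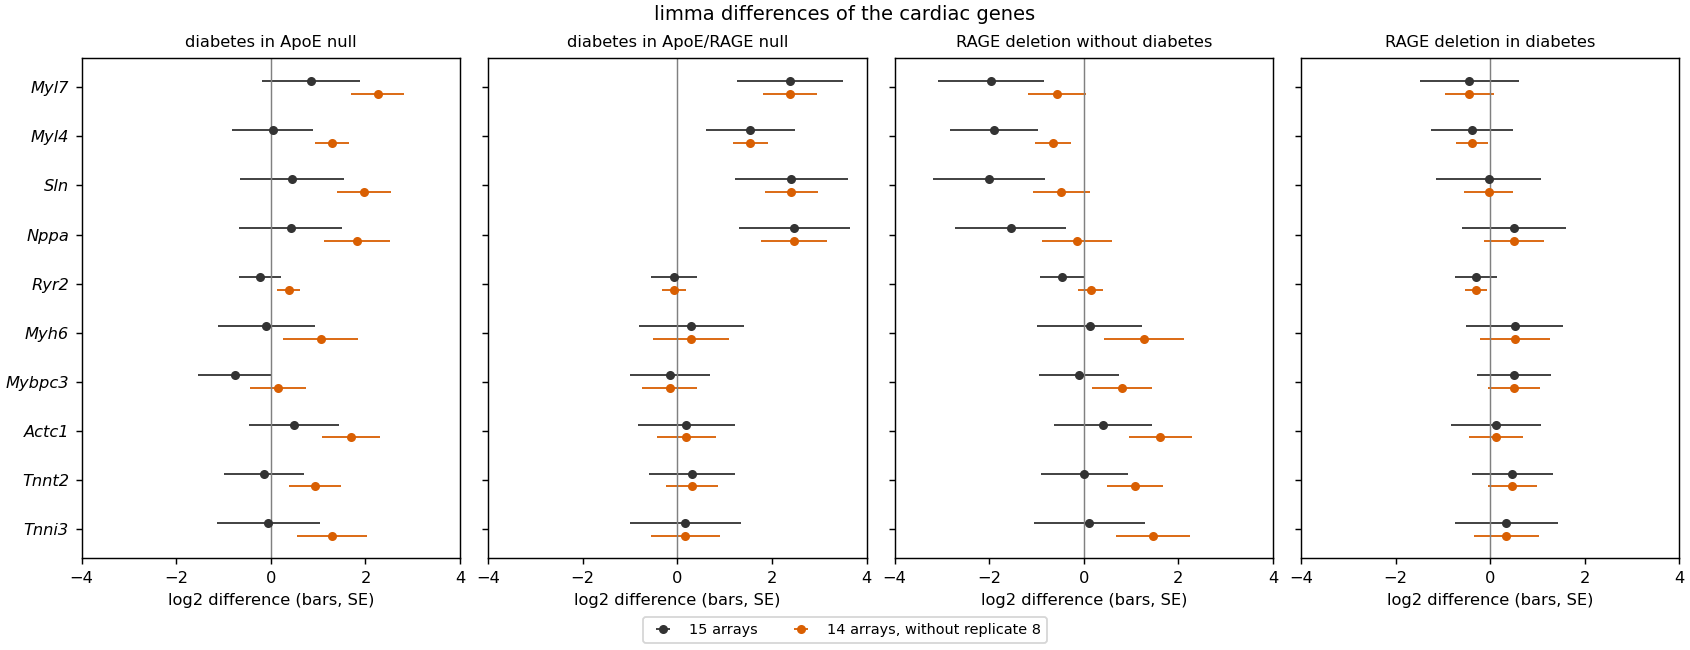
log2 difference of each gene (points) with its SE (bars) in the 2 diabetes comparisons (diabetic minus non-diabetic) and the 2 RAGE comparisons (ApoE/RAGE null minus ApoE null), from limma with all 15 arrays (dark) and without replicate 8 (orange). Leaving out replicate 8 moves all 10 genes upward for diabetes in ApoE null mice, Myl7 from 0.85 to 2.26, and for RAGE deletion without diabetes, Myl7 from -1.97 to -0.56.

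Averaging the diabetes difference over both genotypes, a contrast added after the data were seen, gave 1.61 ± 0.76 for Myl7, 1.45 ± 0.80 for Nppa, 1.43 ± 0.81 for Sln and 0.79 ± 0.64 for Myl4 with all 15 arrays (SE, limma adjusted p 0.501, 0.545, 0.554 and 0.675). By limma, 0 of 10 genes had an adjusted p under 0.05 (0.00222% of all probe sets), 0 an unadjusted p under 0.05 (9.99%) and 0 a B above 0 (0.164%). Without replicate 8 the values were 2.32 ± 0.40 for Myl7, 2.19 ± 0.40 for Sln, 2.14 ± 0.49 for Nppa and 1.42 ± 0.26 for Myl4, with limma adjusted p 0.158, 0.166, 0.343 and 0.166. In that fit 5 of 10 genes had an unadjusted p under 0.05, all higher (4.27% of all probe sets, and 8.84% in either direction), and 0 an adjusted one (0.00888%). All 8 diabetic arrays lay above the 6 remaining non-diabetic arrays for 2 of 10 genes, Myl7 and Nppa, as for 0.0577% of all probe sets (0.127% did not overlap in either direction). With replicate 8 kept, diabetic and non-diabetic arrays overlapped for both genes. It was left out because it was extreme for these same genes, unlike for most probe sets. The count and the smaller p values without it therefore add no support.

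Levels of markers of other tissues are given beside these differences. Over 18 skeletal muscle genes the mean level was 4.74 to 7.17 in diabetic and 4.26 to 6.87 in non-diabetic ApoE null arrays, and 6.57 to 8.18 in diabetic and 4.14 to 4.74 in non-diabetic ApoE/RAGE null arrays. By limma, 0 of these 18 genes passed adjustment for diabetes in ApoE/RAGE null mice, and 13 had an unadjusted p under 0.05, all higher (7.26% of all probe sets in either direction). In ApoE null mice 0 passed and 1 had an unadjusted p under 0.05, higher (10.6% of all). In the fit without replicate 8, 10 of the 18 genes in ApoE null mice had an unadjusted limma p under 0.05 (7.97% of all). There 15 of 18 differences were positive, with a median of 1.72, and 0 genes passed. The corresponding counts were 14 (6.88%) and 0 in ApoE/RAGE null mice, and 13 (8.84%) and 1 (0.00888%) for the average over both genotypes. Over 10 airway and alveolar genes the mean level was 4.67 to 5.32, 4.18 to 5.12, 4.36 to 7.11 and 3.74 to 3.90 in the same order of groups, with the airway secretoglobin gene Scgb1a1 between 3.12 and 10.90 and the alveolar surfactant gene Sftpc at or below 3.75 on all 15 arrays. Over 5 brown fat genes the mean level was 8.05 to 9.68, 9.49 to 10.25, 8.74 to 10.12 and 9.23 to 10.17 in that order. By limma, 0 of the airway and brown fat genes passed adjustment for diabetes in either genotype. At an unadjusted p under 0.05, 1 airway gene was lower in diabetic ApoE null mice and 5 were higher in diabetic ApoE/RAGE null mice, and 4 and 0 brown fat genes were lower. The mean levels of both lists overlapped between diabetic and non-diabetic mice except for the airway genes in ApoE/RAGE null mice.

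Sln and skeletal actin, Acta1, had r 0.562 and rho 0.575 over 15 arrays (permutation p 0.0258 and 0.0276, adjusted p 0.0559 and 0.0449), r 0.735 without arrays 8 and 13 and 0.558 within groups. Myl7 and Acta1 had r 0.534 and rho 0.593 (permutation p 0.0375 and 0.023, adjusted p 0.0696 and 0.0427). Their r was 0.706 without arrays 8 and 13 and 0.502 within groups. Myh6 and Acta1 had r 0.4465 and rho 0.375 (permutation p 0.093 and 0.168, adjusted p 0.121 and 0.218). Their r was 0.474 without arrays 5 and 8 and 0.618 within groups. Nppa and Scgb1a1 had r 0.644 and rho 0.701 (permutation p 0.00965 and 0.00492, adjusted p 0.0251 and 0.0128), r 0.643 without arrays 8 and 11 and 0.493 within groups. Sln and Scgb1a1 had r 0.532 and rho 0.661 (permutation p 0.0414 and 0.00894, adjusted p 0.071 and 0.0211). Their r was 0.593 without arrays 8 and 13 and 0.272 within groups. Myh6 and Scgb1a1 had r 0.259 and rho 0.096 (permutation p 0.352 and 0.734, adjusted p 0.416 and 0.83). Their r was 0.263 without arrays 5 and 8 and 0.412 within groups. The part of any of these tissues in the differences between groups was not tested.

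Between genotypes, replicate 8 again carried the differences. ApoE/RAGE null minus ApoE null without diabetes, Sln was -2.01 ± 1.19, Myl7 -1.97 ± 1.12, Myl4 -1.90 ± 0.93 and Nppa -1.54 ± 1.18 (SE, 3 against 4 arrays, limma adjusted p 1 for each), with a median of -0.28 over the 10 genes against -0.0027 for all probe sets. By limma, 0 of 10 genes had an adjusted p under 0.05 (0% of all probe sets), 0 an unadjusted p under 0.05 (2.57%) and 0 a B above 0 (0%), and the groups overlapped for all 10 genes, against 4.77% of probe sets whose groups did not. Without replicate 8 those 4 differences were -0.48, -0.56, -0.65 and -0.15. Leaving it out had to raise all 10 differences here as well. Actc1 was then 1.62 ± 0.66 higher in ApoE/RAGE null mice, with an unadjusted limma p of 0.0289 (3.08% of all probe sets were under 0.05) and an adjusted p of 1.

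In diabetic mice all 10 differences between genotypes lay between -0.44 (Myl7) and 0.52 (Myh6), with a median of 0.23. By limma, 0 of 10 genes had an adjusted p under 0.05 (0.244% of all probe sets), 0 an unadjusted p under 0.05 (14.8%) and 0 a B above 0 (0.713%), and groups overlapped for all 10 (6.5% of probe sets did not). Replicate 8 is in neither group, so without it the differences were the same, with 0 of 10 genes at an adjusted p under 0.05 (0.249% of all) and 0 at an unadjusted one (14.3%). The test of whether the diabetes difference depended on genotype gave 0 of 10 genes with an adjusted p under 0.05 by limma (0% of all probe sets), 0 with an unadjusted p under 0.05 (7.22%) and 0 with a B above 0 (0%). Its largest terms with 15 arrays were 2.05 ± 1.6 for Nppa and 1.97 ± 1.62 for Sln (SE). Without replicate 8 these were 0.65 ± 0.98 and 0.44 ± 0.80, the largest in size was -1.50 ± 0.88 for Actc1, and the median over the 10 genes went from 0.53 to -0.38. Leaving it out had to lower the terms of all 10 genes. In that fit 0 of 10 genes had an adjusted p under 0.05 by limma (0% of all probe sets) and 0 an unadjusted one (5.6%). A different response of these genes in the 2 genotypes was not detectable with these arrays.

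Of 9 other genes of the sarcoplasmic reticulum calcium cycle, 0 passed the limma adjusted threshold in either diabetes comparison, and 2 and 1 had an unadjusted p under 0.05, in ApoE null and ApoE/RAGE null mice in that order, all higher. Of 8 genes of the natriuretic peptide pathway, 0 passed, and 1 and 0 had an unadjusted p under 0.05, the 1 lower. Of all probe sets, 0% passed in each comparison and 10.6% and 7.26% had an unadjusted p under 0.05, so these counts are no result about the pathways. Nppb, the gene of the ventricular natriuretic peptide, read 2.86 to 4.13 over the 15 arrays, below the median probe set.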

How the data were processed

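RNA of 15 aortas was measured on Affymetrix arrays, 1 mouse per array. Each deposited value is a log2 level. The submitters' processing notes name RMA as the method by which the authors obtained it. The series' design text speaks of normalization within each combination of genotype and disease state, and whether all arrays were normalized in 1 run is not given in the sources used here. RMA sets arrays to like distributions, so a level is relative to the rest of its array. Of 45101 probe sets, 64 controls were left out; of the others 34945 name 1 gene, 932 several and 9160 none in the 2016 platform annotation. A gene was represented by its probe set with the highest mean.

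Groups were compared by linear models in limma (version 3.58.1, R version 4.3.3) that gave each group its own mean, pooled the spread over all arrays and used Benjamini-Hochberg adjustment over 45037 probe sets at 0.05; the fit was tested on simulated data. Correlations used Python 3.11.15 and SciPy 1.17.1 with 100000 two-sided permutations. Named genes are the 10 members, the 10 genes most correlated with their mean, and genes of marker lists; Decr2 was taken from earlier results. The members and lists were chosen with earlier results of these data known. Array number limits precision. Alternatives were other thresholds, filters, scalings, variance models, array weights and arrays left out. Protein sequences and 2 probe sets shared by Myh6 and Myh7 were not used here.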

Additional observations from a re-analysis of the deposited data

Results flagged for a closer look

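Each of the 16 probe sets was examined in 3 groups of 4 arrays, and in 9 of these 48 cases 1 array stood apart from the rest of its group, with a gap of over 0.829 of the group's range, which chance gives for about 1 in 20 groups. The genes share arrays, so these values are not separate events. Replicate 8, a non-diabetic ApoE null mouse, held 5 of the 9: Sln at 11.56 against 4.88 to 5.94 in the other 3 arrays of its group, Myl4 at 11.63 against 6.33 to 7.03, Myl7 at 12.17 against 6.14 to 7.06, and 3.91 at Myh6 probe set 1417729_at and 7.37 at Tnnt2 probe set 1440424_at. Replicate 11, a diabetic ApoE/RAGE null mouse, held 3: Myh6 at 10.71 against 8.80 to 9.12, Ryr2 at 6.67 against 5.72 to 5.86, and 5.01 at Tnnt2 probe set 1440424_at. In diabetic ApoE null mice, Sln read 5.65 in replicate 3 against 7.83 to 8.26 in the others.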

How the results depend on the processing

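Under the settings tried (threshold, arrays in the fit, filter on dim probe sets, quantile normalization, centring, variance model, array weights, probe sets per gene, shared probes and arrays left out), limma called 0 of the 10 genes in each comparison. Of 495 single values of the 10 genes under settings other than leaving out 1 array, 13 changed sign. With quantile normalization these were -0.000963 for Myl4 (diabetes in ApoE null mice), -0.00697 for Tnnt2 (RAGE deletion without diabetes) and 0.00296 for Sln (RAGE deletion in diabetes). With array weights they were 0.55 for Mybpc3 and 0.092 for Ryr2 (diabetes in ApoE/RAGE null mice), -0.57 for Myh6, -0.50 for Tnnt2 and -0.35 for Tnni3 (RAGE deletion without diabetes), and 4.15e-06 for Mybpc3 (diabetes averaged over both genotypes). Without replicates 9 and 10 they were 0.50 for Mybpc3 and 0.15 for Ryr2 (diabetes in ApoE/RAGE null mice), and without replicates 8, 9 and 10 they were 0.33 for Mybpc3 and 0.26 for Ryr2 (the average). The causes were not tested.

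Leaving out 1 array at a time changed the sign of 81 of 750 such values, and the genes concerned had these ranges. For diabetes in ApoE null mice the log2 differences ran over Myh6 -0.93 to 1.05, Myl4 -0.48 to 1.29, Mybpc3 -1.23 to 0.15, Actc1 -0.13 to 1.70, Tnnt2 -0.90 to 0.93, Tnni3 -0.74 to 1.29, Ryr2 -0.57 to 0.38, Sln -0.25 to 1.97 and Nppa -0.18 to 1.82. For diabetes in ApoE/RAGE null mice they were Myh6 -0.67 to 0.87, Mybpc3 -0.90 to 0.32, Actc1 -0.63 to 0.79, Tnnt2 -0.38 to 0.78, Tnni3 -0.79 to 0.79 and Ryr2 -0.29 to 0.028. For RAGE deletion without diabetes they were Myh6 -0.71 to 1.28, Mybpc3 -0.58 to 0.81, Actc1 -0.21 to 1.62, Tnnt2 -0.74 to 1.09, Tnni3 -0.56 to 1.47 and Ryr2 -0.80 to 0.15. For RAGE deletion in diabetes they were Mybpc3 -0.064 to 0.80, Actc1 -0.31 to 0.32, Tnni3 -0.15 to 0.60, Sln -0.62 to 0.25 and Nppa -0.21 to 0.98. For diabetes averaged over both genotypes, a contrast added after the data were seen, they were Myh6 -0.39 to 0.67, Actc1 -0.071 to 0.95, Tnnt2 -0.29 to 0.62, Tnni3 -0.43 to 0.73 and Ryr2 -0.32 to 0.15. Myl7, Myl4, Sln and Nppa kept a positive sign throughout for diabetes in ApoE/RAGE null mice and for the average. In ApoE/RAGE null mice their groups did not overlap, so leaving out 1 array could not change their sign. In each comparison the genes not listed kept their sign. Among them were Myl7, Myl4, Sln and Nppa for RAGE deletion without diabetes, where they stayed negative. Of the 10 genes most like the members, 6 remained when correlated within groups and 5 to 10 remained when 1 array was left out, the 5 without diabetic ApoE null replicate 1.

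No paired analysis was possible because each replicate number occurs in 1 group only. The number of arrays, 3 or 4 a group, and the wide spread of these genes limit what these tests detect, and the values carry no flag for probe sets above background.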

Other observations

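Among the transcription factors of heart muscle, Nkx2-5 read 4.18 to 4.60 and Gata4 3.76 to 4.55 at their brightest probe sets over all 15 arrays, with replicate 8 the highest in both. Tbx20 read 5.92 on replicate 8 and was higher on replicates 15 and 13, at 6.37 and 6.34. Hand2 had its highest value, 8.52, on replicate 13, where the atrial genes were lowest. Tbx5, a factor of atrial and left ventricular muscle, was highest on replicate 8 at both of its probe sets, 5.10 at 1425695_at and 5.04 at 1425694_at.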
